A study of Mus musculus with 74 samples.

Results

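KRAB zinc finger proteins (KRAB-ZFPs) are DNA-binding repressors that join a KRAB domain, which recruits the corepressor KAP1, to an array of zinc fingers. Many of them bind transposable elements, sequences that have spread through the genome and therefore exist in many similar copies. Among the youngest of these in the mouse are the intracisternal A particles (IAPs) and the early transposons (ETn), retrovirus-like elements flanked by a pair of long terminal repeats (LTRs), and L1 elements, which lack LTRs. Described here are the KRAB-ZFP peaks that fell in sequence of intermediate copy number. A peak was taken as a member where the 24-mers of its 200 bp window, read every 8 bp, had a median of at least 100 and under 1000 exact occurrences in the mm9 genome on either strand. Of 53011 peaks of 67 KRAB-ZFPs, 5923 (11.2%) were members.

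The peaks came from ChIP-seq of tagged KRAB-ZFPs that were overexpressed from stably integrated vectors, with the resistant clones pooled, and there was 1 sample for each KRAB-ZFP. F9 EC cells, a mouse embryonal carcinoma line, were used for 18 KRAB-ZFPs that had 3XFLAG at the N-terminus, with F9 input plus a FLAG control as the background, and for 30 that had 3XHA at either end, with F9 input plus an HA control. They were also used for 10 with 3XHA at the C-terminus, for which the background was the ChIP named Gm14296_control. B6 ES cells were used for 9 with 3XHA at the C-terminus and input alone as the background. Each KRAB-ZFP was assayed in 1 of these 4 setups. The ES setup differed from the others in cell line, antibody and control, F9 FLAG from F9 HA in tag and control ChIP, and the Gm14296_control setup from F9 HA in control and aligner, so that differences between KRAB-ZFPs and between setups cannot be told apart, and no value below has a replicate error. Library depths were not given in the table, in which members held 7 to 1078 tags with a median of 35.

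Genome windows of the same length, taken every 100 kb, met the rule in 844 of 25599 cases, or 3.30% (95% Wilson interval 3.09 to 3.52%, counting error only, as for all such intervals here). Members were found over the whole interval, with the lower quartile of their copy numbers at 228, the median at 497 and the upper quartile at 802. The 177 peaks with 100 to under 110 copies had a median fold enrichment of 28.02 over the local background, and the 160 peaks just below the lower bound, with 90 to under 100 copies, one of 23.8. At the upper bound the 14 peaks with 990 to under 1000 copies had a median fold of 28.7 and the 41 peaks less than 10 copies above the bound one of 11.5.

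To show what the members share, the most common 24-mer within 50 bp of the members' summits was taken for each of the 12 KRAB-ZFPs with the most members and for Rex2, which is among the 5 with the highest share. Each is written 5′ to 3′ on the strand that comes first in alphabetical order, and capitals mark the most common 12-mer at the same summits where the 24-mer holds it.
Gm14419: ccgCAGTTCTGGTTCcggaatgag
Gm8898: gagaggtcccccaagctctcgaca
Gm14443: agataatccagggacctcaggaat
Gm14401: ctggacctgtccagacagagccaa
Gm21082: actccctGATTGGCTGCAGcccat
Gm14412: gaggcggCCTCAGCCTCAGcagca
Gm14406: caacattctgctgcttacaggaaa
Gm4631: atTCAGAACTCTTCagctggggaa
Gm14410: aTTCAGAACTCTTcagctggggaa
Gm14399: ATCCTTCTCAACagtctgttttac
Zfp961: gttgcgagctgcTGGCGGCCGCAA
Rex2: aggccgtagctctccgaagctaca
Gm13225: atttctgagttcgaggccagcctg
Gm4631 and Gm14410 had the same 24-mer. The Rex2 word lies, on the other strand, within an oligo that the study designed for a Rex2 reporter and named after the MMETn element. The words were chosen at these summits, so their frequency among members is a description. The Rex2 word was held by 45 of 50 Rex2 members (90%), the Gm14410 word by 91 of 101 (90.1%) and the Gm4631 word by 134 of 177 (75.7%), whereas the Gm13225 word was held by 36 of 241 (14.9%).

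To place the words in their setting, a member of high fold is given for 7 of these KRAB-ZFPs by the 101 bases around its summit (mm9), with the longest run that it shares with the word in capitals.
Gm14419, chr3:74638632-74638732, minus strand: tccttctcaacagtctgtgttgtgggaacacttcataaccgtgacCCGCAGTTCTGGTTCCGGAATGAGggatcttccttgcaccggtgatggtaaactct
Gm14410, chr10:39483690-39483790, minus strand: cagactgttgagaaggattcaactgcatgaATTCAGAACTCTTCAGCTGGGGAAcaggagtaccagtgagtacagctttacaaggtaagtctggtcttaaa
Gm14412, chr3:61248671-61248771, plus strand: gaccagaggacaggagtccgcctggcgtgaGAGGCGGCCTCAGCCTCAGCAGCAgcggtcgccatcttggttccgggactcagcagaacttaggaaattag
Gm14406, chr1:32813232-32813332, plus strand: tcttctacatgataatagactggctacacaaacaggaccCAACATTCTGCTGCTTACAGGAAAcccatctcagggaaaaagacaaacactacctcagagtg
Zfp961, chr2:20421794-20421894, minus strand: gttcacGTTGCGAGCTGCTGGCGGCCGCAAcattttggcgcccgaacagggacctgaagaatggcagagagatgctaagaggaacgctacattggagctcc
Rex2, chr10:30016391-30016491, plus strand: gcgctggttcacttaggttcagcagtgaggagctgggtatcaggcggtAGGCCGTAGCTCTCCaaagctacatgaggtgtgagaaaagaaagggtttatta
Gm21082, chr6:114897442-114897542, plus strand: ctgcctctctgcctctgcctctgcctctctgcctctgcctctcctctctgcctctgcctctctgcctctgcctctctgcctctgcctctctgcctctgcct
The Gm14419 window had a fold of 79.1 with 89 tags, the Gm14412 window 127 with 375 tags, and the Zfp961 window, in an intron of Etl4, also 127 with 251 tags. The Gm21082 window, in an intron of Vgll4, held no part of the Gm21082 word of 12 or more bases and is a short tandem repeat. Windows with at most 88 distinct 24-mers at their 177 positions, as in such repeats, made up 109 of the 5923 members (1.84%), and 44 of these were Gm21082 peaks and 38 Gm14412 peaks.

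The members were held by few KRAB-ZFPs. At least 1 member was found in 58 of the 67, but the top 3, Gm14419 with 1456, Gm8898 with 1234 and Gm14412 with 917, held 60.9% of all members, and the top 12 held 91.5%. Next came Gm21082 with 347, Gm14406 with 304, Gm13225 with 241, Gm14401 with 224, Gm14443 with 190, Gm4631 with 177, Zfp961 with 120, Gm14399 with 110 and Gm14410 with 101 members. Several of these lists hold uncertain calls. The median deposited false discovery rate of members was 53.8% in Gm14399, 37.4% in Gm4631 and 14.8% in Gm14410. It was 10.1% in Gm14401, 8.1% in Gm14443, 2.975% in Gm8898 and 0.37% in Gm14419, and lower in the rest of the 12. Of the 12, 9 genes lie on chromosome 2, and the others are Gm21082 and Gm13225 on chromosome 4 and Zfp961 on chromosome 8.

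As a share of its own peaks, Gm8898 stood highest with 1234 of 1517 (81.3%, Wilson interval 79.3 to 83.2%). Rex2 followed with 50 of 67 (74.6%, 63.1 to 83.5%) and Gm14410 with 101 of 142 (71.1%, 63.2 to 77.9%), and their intervals overlapped, as did those of Rex2 and Gm8898. Gm4631 had 47.7% (42.7 to 52.8%) and Gm14443 39.6% (35.3 to 44.0%). Gm14406 is an example of the reverse: its 304 members were 5.35% of 5685 peaks, of which 4545 lay in sequence with 1000 or more copies. Most of the peaks of Gm21082 (1645 of 2211) also lay above the upper bound, and Zfp961, Gm14410 and Rex2 had no such peak. Over all 67 KRAB-ZFPs the median share was 1.89%, the interval lay above the genome windows' 3.30% in 19 and below it in 21.

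**Figure D1:**
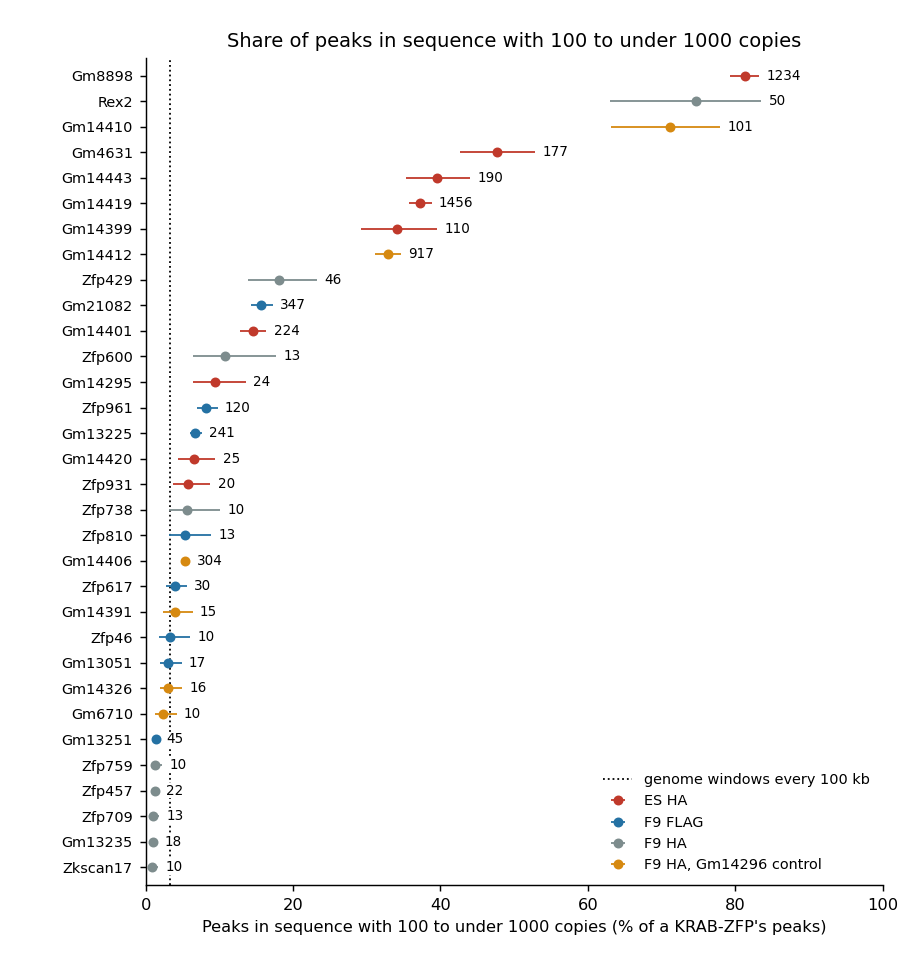
Share of peaks in sequence with 100 to under 1000 copies for the 32 KRAB-ZFPs with at least 10 members (points, percent of the KRAB-ZFP's peaks; bars, 95% Wilson intervals; numbers, members; colours, setup). Gm8898, Rex2 and Gm14410 lie above 70%, and the dotted line marks the 3.30% of genome windows.

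Of the 9 KRAB-ZFPs with no member, the 5 with the most peaks were Gm13157 with 443 peaks, Zfp712 with 197, AW146154 with 159, Zfp874a with 148 and Zfp273 with 140. These counts of 0 allow shares of up to 0.677, 1.52, 1.89, 2.03 and 2.14%, taking 3 counts as the limit. Another 26 KRAB-ZFPs had 1 to 9 members.

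By setup, members were 3460 of 9122 ES peaks (37.9%), 1373 of 10478 F9 peaks called against Gm14296_control (13.1%), 849 of 20728 F9 FLAG peaks (4.10%) and 241 of 12683 F9 HA peaks (1.90%). The ES and Gm14296_control setups were set against each other because both assayed KRAB-ZFPs of the chromosome 2 cluster. They also differ in cell line, antibody, control, aligner and call threshold, which this comparison cannot tell apart from the KRAB-ZFPs. The mean share was 30.7% ± 24.8 (SD, n = 9) in ES cells and 12.6% ± 22.7 (SD, n = 10) in F9 cells, with medians of 34.2% and 2.70%. The shares ranged from 5.78 to 81.3% and from 1.49 to 71.1%, so that the groups overlapped. The difference of 18.1 points in mean share did not pass (two-sided exact permutation test, p = 0.117, adjusted p = 0.175 over 3 comparisons). Without Gm14410, by far the highest of the F9 group, the difference was 24.6 points with an adjusted p of 0.0273 by the same exact permutation test, and without Gm8898 it was 11.8 points.

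F9 FLAG and F9 HA differed by -1.08 points (means of 3.55% ± 4.08, SD, n = 18, and 4.63% ± 13.8, SD, n = 30; permutation test, p = 0.911). Within F9 HA, the 7 KRAB-ZFPs with genes on chromosome 4 had a mean share of 14.1% ± 26.96 (SD) and the 16 on chromosome 13 one of 2.23% ± 4.53 (SD), with medians of 2.37% and 0.738% (exact permutation test, p = 0.0656, adjusted p = 0.175). The means rested on single KRAB-ZFPs. Without Rex2 the difference fell from 11.8 to 1.74 points, and without Zfp429, the highest on chromosome 13 with 46 of 254 peaks (18.1%), it was 12.9 points with an adjusted p of 0.0271 by the exact permutation test.

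Members were grouped by sequence in 2 ways. Linking windows that shared at least 40 24-mers gave 457 families, of which 381 held a single member and the 11 with 10 or more held 5362 members. The largest held 2102 members, led by Gm14419 with 1383, Gm21082 with 277, Gm4631 with 165, Gm14410 with 100 and Gm14399 with 98. The second held 1608, of which Gm8898 gave 1222, Gm14401 203 and Gm14443 179. The third held 905, with 836 from Gm14412 and 61 from Gm14419, the fourth 300, with 298 from Gm14406, and the fifth 175, with 114 from Zfp961, 50 from Rex2 and 8 from Zfp600. The sixth (91 members) and the eighth (58) were led by Gm13225 with 75 and 51, the seventh (63) by Gm21082 with 40, the ninth (23) by Zfp617 with 21, and the tenth (20) by Zfp457 with 7. Among the 12, a KRAB-ZFP's members thus lay largely in 1 family, and Gm13225, with members in several, was the exception. Windows can be linked through other windows, so a family need not be 1 sequence.

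Second, summits were placed on reference stretches, which are genome copies chosen to match as many members as possible at 20 or more of the 78 24-mers around the summit. In all, 10 such stretches took in 5129 members (86.6%), and the first alone 2804 (47.3%). That first stretch, chr5:13855326-13866549, and the third, chr7:22187347-22205338, both read on the minus strand, which carries their longest open reading frame, hold exact copies of a 30-base oligo that the study designed for Gm21082 from the IAP LTR named IAPLTR1_Mm. The stretch on chromosome 7 has a pair of direct repeats 6871 bp apart, at positions 6966 to 7382 and 13837 to 14253 from its 5′ end, with the oligo sequence in each. It could take in 1872 of all members, many of which also match the first stretch.

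On this stretch the 6 KRAB-ZFPs with more than 100 placed members each had most summits at a different place. The summits of 206 of 208 Gm21082 members lay within 100 bp of position 7114, inside the terminal repeat, and 207 matched both repeats equally, so that they are drawn in the first. Past the end of the first repeat came Gm14419, with 341 of 358 summits near position 7484. Gm14443 followed with 170 of 182 near 8786, Gm8898 with 756 of 783 near 8987 and Gm14401 with 171 of 172 near 12912, shortly before the second repeat. Of 124 Gm14406 members, 106 lay near position 4566, before the first repeat and thus outside the span of the pair. Gm14443 and Gm8898, of which the modal positions lie closest, also have 23 loci in common. On the first stretch, whose repeats are 3972 bp apart at 2456 to 2794 and 6428 to 6766, the order was the same, with Gm21082 at 2604 (200 of 209 summits), Gm14443 at 4133 (169 of 180), Gm8898 at 4335 (848 of 938) and Gm14401 at 5511 (172 of 173). Gm14419 had a pair of places there, with 421 of 957 summits near 2871, past the end of the first repeat, and 517 near 9045, behind the second. The latter place is where Gm4631 (133 of 141 near 8921), Gm14410 (77 of 78 near 8944) and Gm14399 (89 of 93 near 8990) had their summits.

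The same order of Gm14419, Gm14443, Gm8898 and Gm14401 was found on a further stretch, chr11:31347438-31361493, whose terminal repeats are 6916 bp apart, with modal positions of 7256, 8532, 8729 and 12651. It could take in 1656 members, of which 125 matched no stretch chosen before it, so the order rests largely on the same members. There 39 of 39 Zfp429 summits lay near position 6935 and 36 of 39 Gm21082 summits near 6778, both within the repeat at 6654 to 7138. All 39 of each matched the second repeat, at 13570 to 14054, equally well, and they were put in the first by convention.

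**Figure D2:**
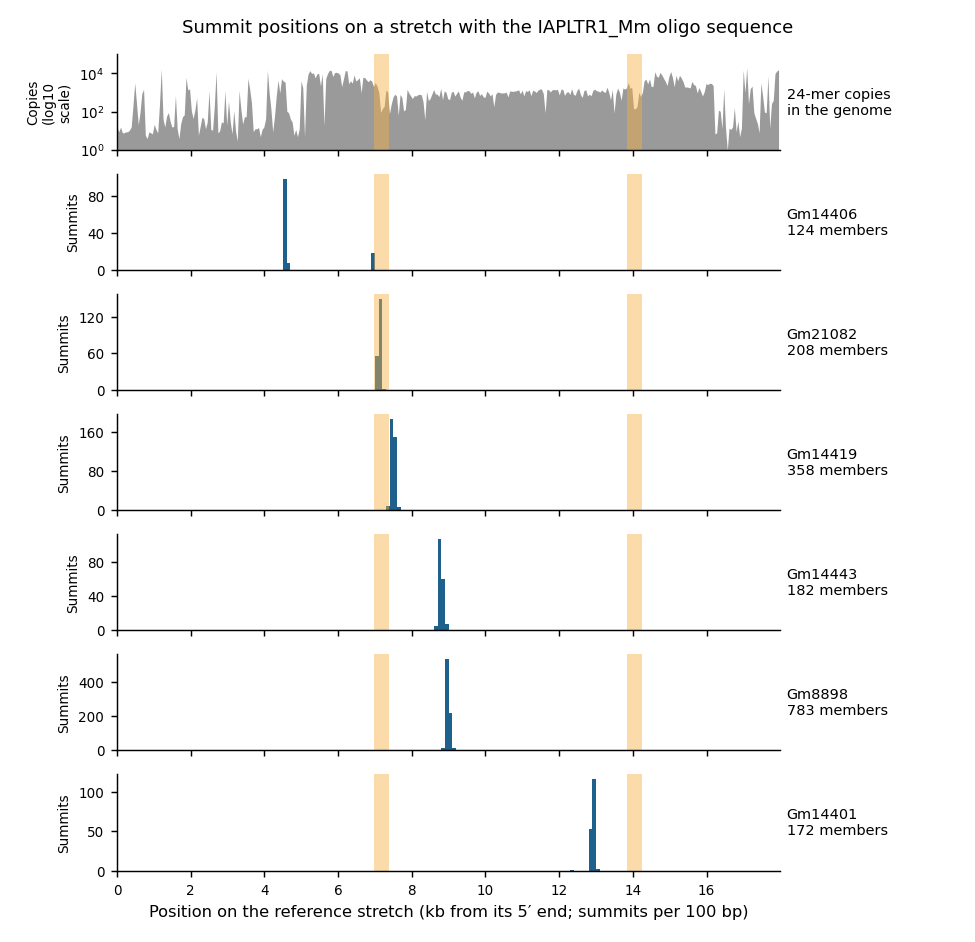
Summits of members on the chromosome 7 stretch (x axis, kb from its 5′ end; y axes, summits per 100 bp, and in the top panel genomic copies of its 24-mers on a log scale; orange, the terminal repeats). Summits of Gm21082, Gm14419, Gm14443, Gm8898 and Gm14401 follow each other at 7114, 7484, 8786, 8987 and 12912 bp.

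A second class of stretch held capture probes that the study designed for RLTRETN_Mm, the LTR of ETn elements. On chr8:5212756-5227395, read on the minus strand, the probe starts at position 3370. There all 50 Rex2 summits lay within 100 bp of position 3675, all 8 placed Zfp600 summits near 3686 and 30 of 43 Zfp961 summits near 3522, with another 9 near 9883. The Rex2 reporter oligo starts at position 3657 of this stretch. Farther along, Gm14419 (434 of 440 summits near 9060), Gm4631 (134 of 136 near 9009), Gm14410 (59 of 59 near 9009) and Gm14399 (18 of 18 near 9036) had modal positions close to each other. Most of these members also match a stretch chosen before this one, and those earlier stretches hold no such probe. Only 117 Gm14419, 11 Gm4631 and 5 Gm14410 members matched none of those, so the others are not further peaks. Gm14419, Gm4631, Gm14410 and Gm14399 led the largest family with Gm21082, apart from that of Rex2 and Zfp961. More of their members matched chr10:86605000-86608743, which holds no probe and has direct repeats at 1 to 309 and 3160 to 3468. There 166 of 172 Gm21082 summits lay near 147, inside the first repeat. Past its end came Gm14419 (513 of 632 near 539), Gm14399 (85 of 92 near 649), Gm14410 (83 of 87 near 730) and Gm4631 (130 of 148 near 751). On chr14:9573956-9588723, read on the minus strand and with terminal repeats at 5416 to 5733 and 12589 to 12906, 61 of 68 Zfp961 summits lay near position 5744, directly behind the first repeat. In a retrovirus the primer binding site, at which a transfer RNA starts reverse transcription, lies directly behind the first LTR. On the same stretch 166 of 167 Gm14406 summits lay near 4530, before the first repeat, and 31 of the 167 members matched no stretch chosen before this one.

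**Figure D3:**
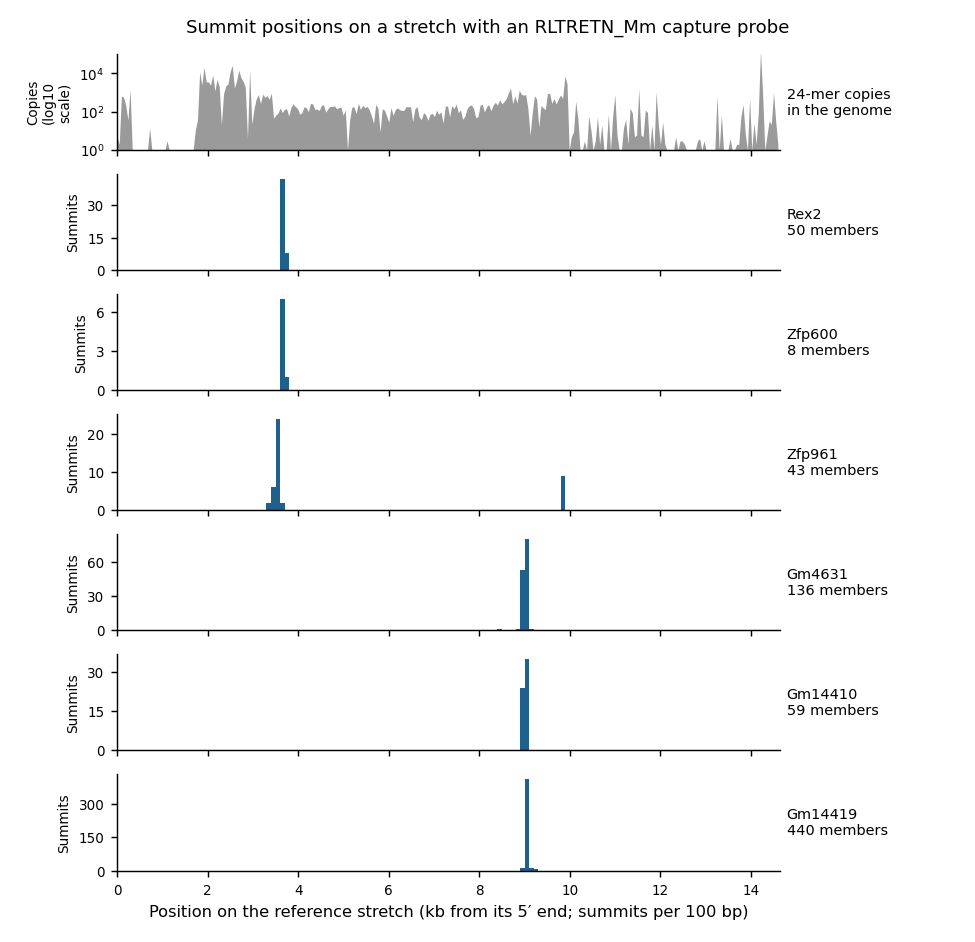
Summits of members on the chromosome 8 stretch (axes as in the plot of the chromosome 7 stretch; no terminal repeats were found in it). Rex2 and Zfp600 summits and most of those of Zfp961 lie within 100 bp of positions 3675, 3686 and 3522, and those of Gm4631, Gm14410 and Gm14419 near 9009, 9009 and 9060. Most of the Gm4631, Gm14410 and Gm14419 members shown also match stretches that hold no RLTRETN_Mm capture probe.

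Exact copies of the study's reporter oligos were also counted, and the 3 with a copy inside a member are given.
Rex2_MMETn: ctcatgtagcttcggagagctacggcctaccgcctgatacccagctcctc
Zfp961_PBS-Lys1,2: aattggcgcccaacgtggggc
Gm21082_IAPLTR1_Mm: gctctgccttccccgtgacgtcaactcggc
The Rex2 oligo occurs 32 times in mm9, and 28 of these lay inside a Rex2 member, 6 inside a Zfp600 member and 1 inside a Zfp961 member. The Zfp961 oligo, named for a primer binding site, occurs 33 times, 14 of them inside a Zfp961 member. The Gm21082 oligo occurs 2110 times, with 151 inside a Gm21082 member and 3 inside a Gm13150 member. The other 17 of the study's 20 reporter oligos had no copy inside a member, but 15 of them occur at most 4 times in mm9. The 2 with more copies were Gm13152_RLTR13B1 with 193 and Zfp617_ORR1A2 with 58. Capture probes named RLTRETN_Mm overlapped 91 members, of which 88 were Zfp961 peaks, and those named RLTR4_Mm overlapped none.

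Gm14412, by contrast, had 741 of its 917 members on a stretch without probes or oligos. On chr10:14638918-14649533, whose 24-mers had a median of 2151 copies, 645 of 741 Gm14412 summits lay near position 3994, and 50 of 56 Gm14419 summits near 3934. The Gm14406 summits on it fell into a pair of places, 71 of 140 near 6239 and 68 near 1594. The stretch holds direct repeats 4646 bp apart, at 994 to 1798 and 5640 to 6444. The places of Gm14406 lie at nearly the same point of each repeat, so they are matching places of 1 repeated sequence. Of the 140 summits, 4 matched more than 1 position equally. The single place of Gm14412 depends on the stretch. On chr10:11355587-11363010, 417 of 782 Gm14412 summits lay near position 209 and 238 near 630. There 145 of the 782 matched more than 1 position equally, and 60 matched no stretch chosen before it. A stretch of short tandem repeats, chr17:83567248-83569775, took in 160 members, of which 77 were Gm14412 peaks, 68 Gm21082 peaks and 12 Zfp810 peaks.

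How many copies of a word carried a peak was then counted over the genome. A copy was counted where a summit of that KRAB-ZFP, member or not, lay within 50 bp of it. For Gm14419, 762 of 864 exact copies (88.2%, Wilson interval 85.9 to 90.2%) had such a summit. Gm8898 had 730 of 1120 (65.2%, 62.3 to 67.9%), Gm14412 706 of 1179 (59.9%, 57.1 to 62.6%) and Gm14406 4073 of 7231 (56.3%, 55.2 to 57.5%). Rex2 had 46 of 134 (34.3%, 26.8 to 42.7%), Zfp961 81 of 319 (25.4%, 20.9 to 30.4%) and Gm21082 1419 of 6182 (22.95%, 21.9 to 24.02%). Lower shares were found for Gm14401 with 348 of 1744 (20.0%) and Gm14443 with 132 of 765 (17.3%). The word that Gm4631 and Gm14410 have in common occurs 2597 times, with 171 copies (6.58%) at a Gm4631 summit and 124 (4.77%) at a Gm14410 summit. The Gm14399 word occurs 1779 times, with 88 copies (4.95%) at a Gm14399 summit and another 591 at summits of other KRAB-ZFPs only. The Gm13225 word is a common repeat with 42682 copies, of which 0.248% had a Gm13225 summit. Words were chosen for being common at peaks, reads with several equal positions were placed at random by the authors, and depths were unknown, so a copy without a peak is not shown to be unbound.

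**Figure D4:**
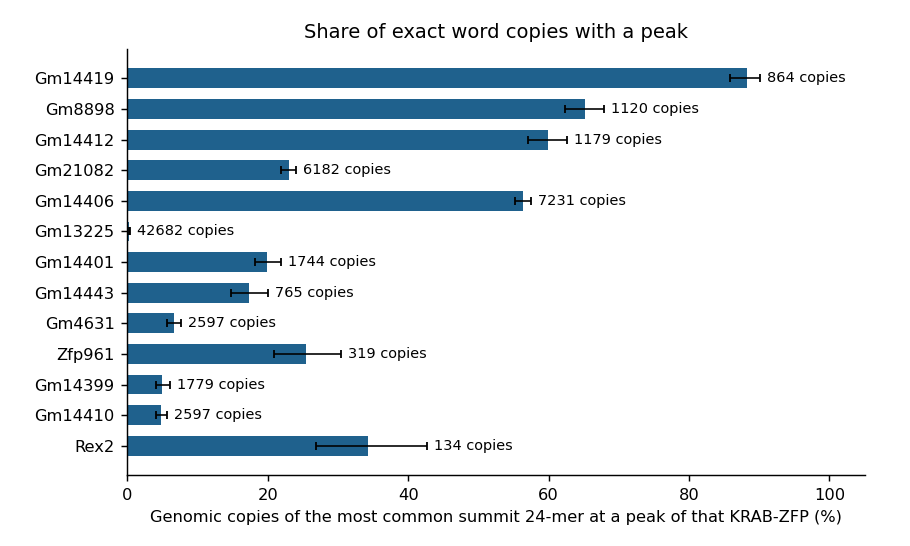
Share of the exact genomic copies of each KRAB-ZFP's most common summit 24-mer that lie within 50 bp of one of its summits (bars, percent; error bars, 95% Wilson intervals; numbers, copies in mm9). Gm14419 reaches 88.2%, and Gm4631 and Gm14410, which have the same word, lie at 6.58% and 4.77%.

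Single-copy peaks, which were not used to choose the words, rarely held the most common 12-mer of the members. A median of 1 copy selects against repeated sequence, so this rarity is partly set by the choice of windows. The most common 12-mer of the Rex2 members was present in 49 of 50 members and in 2 of 15 single-copy Rex2 peaks (13.3%), against 2 of 30900 single-copy peaks of other KRAB-ZFPs (0.00647%). For Gm14406 it was present in 8 of 280 own single-copy peaks (2.86%) and in none of 30635 of the others. Gm14419 had 21 of 963 (2.18%) against 1 of 29952, and Gm14412 12 of 887 (1.35%) against 7 of 30028. Lower shares were those of Gm8898 with 1 of 145 (0.690%), Gm13225 with 6 of 2636 (0.228%) and Zfp961 with 1 of 1055 (0.0948%). In the others' single-copy peaks these 12-mers were in 0 of 30770, 8 of 28279 and 1 of 29860. The 12-mers of Gm21082, Gm14401, Gm14443, Gm4631, Gm14399 and Gm14410 were in none of their own single-copy peaks, which allows shares from 0.329% (0 of 912, Gm14401) up to 15% (0 of 20, Gm14410). Only exact matches were counted.

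The windows differed in base composition as well. The median GC content was 51% over members (quartiles 47.5 and 54%) and 47.5% over single-copy peaks, against 43.5% in genome windows of the same copy number and 41.5% in single-copy genome windows. Members held a median of 7 CpG dinucleotides per 200 bp and single-copy peaks 2. Among the KRAB-ZFPs whose words are given, Gm14412 members were the richest in GC with 63.5%, and Gm14406 members the poorest with 38.5% and a median of 0 CpG. Gm14419 members held 12 CpG, Zfp961 and Gm14412 members 11.

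Peak strength was compared within each of the 32 KRAB-ZFPs that had at least 10 members and 10 single-copy peaks. The median fold of Gm14419 members was 26.5 (quartiles 16.7 and 37.4) against 12.1 for its single-copy peaks, and that of Gm14412 members 39.4 (28.3 and 52.2) against 31.7. In Rex2 it was 39.3 against 31.1. The members' median was the lower one in Gm14410, with 18.6 against 31.4, and in Gm13051, with 30.8 against 46.2, while Gm21082 (30.02 against 31.5) and Zfp961 (36.8 against 37.6) were near parity. Over the 32, the log2 fold of members was higher in 18 and lower in 14, with a mean difference of 0.05 ± 0.31 (SD over KRAB-ZFPs; two-sided sign-flip permutation test, adjusted p = 0.358 over 7 measures). The mean differences in log2 tags (-0.09 ± 0.53), log2 score (-0.11 ± 0.57) and log2 called width (-0.09 ± 0.29) did not pass either, with adjusted p of 0.358, 0.358 and 0.162 by the same permutation test.

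The tags were also compared within each setup, a split made after seeing the data. In the 9 ES samples the mean log2 difference was 0.43 and did not pass (exact sign-flip test, adjusted p = 0.109), with the members' median higher in 6, lower in 2 and equal in 1. The median was 50 tags for members against 22 for single-copy peaks in Gm14419, 23 against 10 in Gm8898, 15 against 16 in Gm14401 and 15.5 against 18 in Gm14443. Members had fewer tags in F9 FLAG, with a mean log2 difference of -0.51 over 8 samples (lower in 7; exact test, adjusted p = 0.0219), and in F9 HA, with -0.26 over 9 samples (lower in 7; exact test, adjusted p = 0.0383). In 6 samples of the Gm14296_control setup the difference was -0.06 (higher in 4, lower in 2; exact test, adjusted p = 0.875). The adjusted p values cover the 7 measures and not the choice among 4 setups, and the difference between setups was not tested. Random placement spreads the tags of a repeat over its copies, and how far this moved the values was not tested.

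Within a KRAB-ZFP, the Spearman correlation of copy number and fold across members was -0.54 in Zfp961 (120 members), 0.40 in Rex2 (50), -0.26 in Gm8898 (1234), 0.25 in Gm14412 (917) and -0.17 in Gm14419 (1456). These are descriptions, since members of 1 KRAB-ZFP come from 1 library and from near-identical sequence.

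Members were more often intergenic than single-copy peaks and less often near a transcript start. Of all members 4541 (76.7%) were intergenic by gencode, 1363 (23.01%) intronic and 19 (0.321%) exonic, and 55 (0.929%) lay within 1 kb of a transcript start. Over the 32 KRAB-ZFPs the mean intergenic share was 72.4% for members and 49.1% for single-copy peaks, a difference of 23.3 ± 15.2 points (SD) that was positive in 29 (permutation test, p = 1e-05, the smallest 100000 resamples can give; adjusted p = 3.5e-05). It was large in Rex2 (78 against 26.7%), Gm14443 (81.1 against 38.8%) and Gm14412 (77.2 against 38.7%). In Gm13225 (51.9 against 49.3%) and Gm13251 (53.3 against 52.5%) the shares were close, and in Gm13235 (44.4 against 49.0%), Zfp709 (46.2 against 47.5%) and Gm13051 (76.5 against 77.2%) members had the lower value. The share within 1 kb of a start was 0.926% against 12.9%, lower for members in 31 of the 32 (permutation test, p = 1e-05; adjusted p = 3.5e-05). Single-copy peaks near starts were most frequent in Zfp46 (46.2%), Zfp810 (45.6%) and Gm14410 (45%), in which the members near starts were 0, 0 and 0.990%.

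The genome windows give the background for both measures. Of the 844 genome windows with 100 to under 1000 copies, 72.9% were intergenic and 1.66% lay within 1 kb of a start, and of the 20730 single-copy windows 55.3% and 4.54%. The members' mean intergenic share of 72.4% was near that of windows of their copy number, and their 0.926% near starts was lower. Single-copy peaks, with means of 49.1% and 12.9%, were less intergenic and more often near starts than single-copy windows. Against a KRAB-ZFP's own peaks with 10 to under 100 copies, members differed by 2.05 points in the intergenic share (permutation test over 30 KRAB-ZFPs, adjusted p = 0.709).

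**Figure D5:**
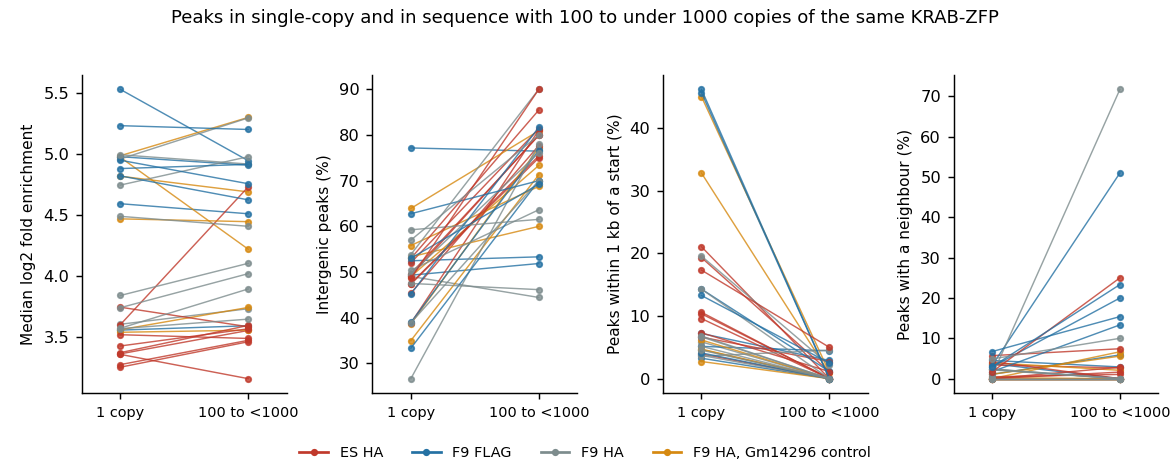
Single-copy peaks and members of the same KRAB-ZFP joined by a line, for 32 KRAB-ZFPs (y axes, median log2 fold, percent intergenic, percent within 1 kb of a transcript start, and percent with another peak of that KRAB-ZFP at 200 bp to 10 kb; colours, setup). Intergenic shares are higher for members in 29 of 32, shares near starts lower in 31 of 32, and folds go both ways.

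A neighbouring peak of the same KRAB-ZFP, 200 bp to 10 kb away, was found for 440 members (7.43%). Over the 32 KRAB-ZFPs the mean share was 8.39% for members and 1.95% for single-copy peaks, a difference of 6.44 ± 15.7 points (SD) that was positive in 15, negative in 10 and 0 in the others (permutation test, p = 0.00596, adjusted p = 0.0139). Zfp429 had 33 of 46 members with a neighbour (71.7%), Gm21082 177 of 347 (51.0%), Zfp931 5 of 20 (25%) and Zfp961 28 of 120 (23.3%), against 0.752, 3.25, 1.68 and 2.94% of their single-copy peaks. Gm14419 had 7.42% against 5.71% of its single-copy peaks and Gm14406 5.59% against 1.07%, Gm8898, Gm14443 and Gm14401 had 1.62, 1.05 and 2.68% of members with a neighbour, and Gm14399, Gm14410 and Rex2 had none. The median distance was 6375 bp over 146 neighbouring pairs of Gm21082 (quartiles 4570 and 6757), 5214 bp over 21 of Zfp961 and 3956 bp over 19 of Zfp429. Without Zfp429 the mean difference was 4.36 points, and it no longer passed when at least 20 peaks of each kind were asked for (8.99 points in 19 KRAB-ZFPs, permutation test, adjusted p = 0.0926).

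Of the 5511 loci made from overlapping windows that held a member, 428 were called in more than 1 KRAB-ZFP and 94 in 3 or more. This took in 840 members (14.2%), against 17.04% of single-copy peaks. Gm14419 and Gm4631 had members at 96 common loci, which is 54.2% of the Gm4631 loci and 6.59% of the Gm14419 loci. Gm14399 and Gm14419 had 78 (70.9 and 5.36%), and Gm14410 and Gm14419 58 (57.4 and 3.98%) although these were assayed in different cell lines. The median distance between their summits was 102.5 bp, 52 bp and 87.5 bp. Rex2 and Zfp600 had 8 loci in common (16% of the Rex2 and 61.5% of the Zfp600 loci), with summits a median of 12 bp apart. Where the authors placed reads at random among equal copies, both the presence and the absence of a common locus depend on that placement.

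The locus called in the most KRAB-ZFPs, chr3:95230471-95230832, was called in 8, but only 1 of the 8 windows was a member, and chr14:94687578-94688002, called in 6, likewise held 1 member. At chr1:33156075-33156295, called in 7 (Gm13235, Gm13251, Zfp457, Zfp458, Zfp709, Zfp872 and Zfp953), 6 had a member window. At chr6:68610374-68611003, called in 6, 5 of the 6 (Gm14399, Gm14410, Gm14418, Gm14419, Gm4631 and Zkscan17) had a member window. The intronic locus chr10:86605435-86605848, in 1700113H08Rik, held members of Gm14399, Gm14410, Gm14419, Gm14420 and Gm4631.

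Members lay in the bodies of 891 annotated genes, of which 813 are protein-coding. The vomeronasal receptor gene Vmn2r35 held the most with 8 members of 4 KRAB-ZFPs, followed by Erbb4, a receptor tyrosine kinase gene, with 7 of 5, and the pseudogene Gm3616 with 7 of 4. Then came 7 genes with 6 each: 1700113H08Rik, Adarb2, Fhit, Gm16432, Gpc6, Sntg1 and Tiam1. These counts were not set against gene length, so they show no excess of members in any of these genes. Where an intronic member could be placed on a reference stretch, the strand of the stretch was compared with that of the gene. This strand was set once for a whole stretch, by a capture probe or by its longest open reading frame. Stretches also hold sequence outside the terminal repeats, so it is not known to be the strand of the element at each summit. It was opposite to the gene in 663 of 1107 cases (59.9%, Wilson interval 56.98 to 62.7%). On the chromosome 7 stretch it was opposite in 80 of 120 (66.7%, 57.8 to 74.5%) and on the chromosome 8 stretch in 25 of 55 (45.5%, 33.03 to 58.5%). Different KRAB-ZFPs may have members in the same element, so these cases are not all separate insertions.

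Among the 55 members near a transcript start, the highest fold was that of Zfp961 at 681 bp from Gm14558 (fold 86.8, 110 tags), followed by Gm14412 at 884 bp from Arhgap15 (64.2) and Gm14419 at 465 bp from Gm17672 (62.1). Gm21082 had a member 981 bp from Slc5a11 (58.03), a sodium-coupled inositol transporter gene, and one 669 bp from Gm10047 (52.03). Further ones were Gm14419 near Gm7735 (57.9) and Gm15377 (50.01), Gm14412 near Ces5a (41.9), Zfp429 near Gm2783 (41.7) and Zfp961 at 246 bp from Wiz (41.5), which encodes a zinc finger partner of the histone methyltransferase G9a.

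The density of members was between 1.73 per Mb on chromosome 19 and 2.65 per Mb on chromosome X among the autosomes and X, with 1.006 per Mb on Y. Chromosome X held 442 members (7.46%), 2.18% of single-copy peaks and 6.34% of genome windows.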

How the data were processed

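ChIP-seq peaks were measured in 68 samples of the 74, and the others were controls. The authors mapped reads to mm9 with Bowtie or Bowtie2, placed reads with several equal positions at 1 of them at random, called peaks per sample with MACS 1.4.2 without pooling, and set them to 200 bp around the summit. Thresholds per the labels were p under 1e-10 or 1e-05 with enrichment over 20 or 10 in F9 cells, and p under 1e-05 alone in ES cells. The deposited tags are raw counts per peak, the deposited score is -10 log10 of the p-value, the deposited fold is a ratio to the local background and the deposited false discovery rate is a percent. Depth per library was not given in the sources used here, so a missing peak has no known detection limit. A name that no label carries was left out with its 244 peaks, and Zfp94, which is labelled, had no row in the table.

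Exact 24-mer copies were counted in NCBIM37 (mm9), and genes were taken from gencode vM1. Gene chromosomes of the KRAB-ZFPs came from gencode or, failing that, from the RefSeq gene table. Shares were compared by two-sided permutation tests over KRAB-ZFPs, exact where the splits could be enumerated and otherwise with 100000 resamples. Members were compared with single-copy peaks by sign-flip tests on the within-KRAB-ZFP difference, with Benjamini-Hochberg adjustment over 7 measures or 3 share comparisons and a threshold of 0.05. Intervals and the limits beside counts of 0 (3 counts) cover counting error only. Named KRAB-ZFPs are the 12 with the most members, the 5 with the highest share among those with at least 50 peaks and the 5 with the most peaks among those without members; named families are the 10 largest, named loci the 5 called in the most KRAB-ZFPs, and named genes the 10 with the most members and the 10 members of highest fold near starts; windows are those of the member of highest fold, with chromosome 18 left out; any others were named after their values were seen. Reference stretches were cut from 9 kb on either side of 40 high-fold members per KRAB-ZFP, up to 400 bp of sequence with under 10 copies. Oligo and capture probe sequences were taken from the study's supplements. The counting, placement and tests were tested on simulated data. The members, lists and tests were chosen with earlier results of these data known. Python 3.11, numpy 2.4.6, numba 0.67.0, scipy 1.17.1 and pandas 2.3.3 were used.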

Additional observations from a re-analysis of the deposited data

Results flagged for a closer look

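Gm14410 had 71.1% of its peaks in sequence with 100 to under 1000 copies, far above the next of the 10 KRAB-ZFPs called against Gm14296_control in F9 cells (Gm14412, 32.9%). The gap was 0.549 of the range of the group, above Dixon's critical value of 0.466. Rex2 had 74.6%, far above the other 6 KRAB-ZFPs of the F9 HA setup with genes on chromosome 4, with a gap of 0.867 of the range against a critical value of 0.568. The critical values are set so that chance flags about 1 group in 20 where values are normally distributed. Shares are bounded and were skewed here, with medians of 2.70% and 2.37% and means of 12.6% and 14.1%, so the rate for these groups is not known. Both rest on small peak lists, of 142 and 67 peaks. The Gm8898 share in ES cells (81.3%) lay below the critical value of its group, with 0.445 against 0.493.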

How the results depend on the processing

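Members kept a higher intergenic share than single-copy peaks, and a lower share near transcript starts, under the other settings that kept all setups together. Direction and significance held there and under the omission of any single KRAB-ZFP. Genome windows of the members' copy number were 72.9% intergenic, near the members' mean of 72.4%, so no excess over such sequence is shown. Compared with peaks of 10 to under 100 copies, the differences were 2.05 points (intergenic), -1.53 (near starts) and 0.872 (neighbours), and compared with peaks of 1000 copies or more 3.62, -0.830 and -0.078, with log2 differences of 0.15 in tags, 0.078 in score and 0.071 in width; none of these passed. Asking for p under 1e-10 and enrichment over 20 in all samples left 3109 members and 16 KRAB-ZFPs, with log2 differences of -0.056 in fold, and of -0.36 in tags, -0.40 in score and -0.24 in width that passed. With a false discovery rate of at most 5% the width difference was -0.18 and passed. With at least 20 peaks of each kind the differences were 0.084 in log2 tags, 0.029 in score, 0.0078 in width and 8.99 points for neighbours, none of which passed. Averaging log2 values in place of medians gave a fold difference of -0.0086.

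Taken alone, a choice made after seeing the data, the ES setup gave 0.43 in log2 tags, 0.34 in score, 0.16 in width and 2.79 points for neighbours, none passing. F9 FLAG gave -0.14 in fold, and -0.51 in tags, -0.59 in score and -0.30 in width, which passed. F9 HA gave 0.16 in fold, -0.26 in tags and -0.22 in width, which passed, and 7.43 points for neighbours, which did not. The 6 KRAB-ZFPs of the Gm14296_control setup gave -0.065 in fold, 0.0096 in width, 22.6 points (intergenic), -15.7 (near starts) and 1.51 (neighbours), none passing. The adjustment did not cover the choice among setups. The chromosome 4 against 13 difference was 12.9 points with 32-mers and passed, and FLAG against HA was 1.47 points with at least 100 peaks. Members at loci of another KRAB-ZFP were 10.6% at 50% overlap, 17.96% at 1 bp and 6.05% at the strict thresholds, and families numbered 201 at 20 and 1066 at 80 common 24-mers. The causes of these shifts were not tested.

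Leaving out 1 KRAB-ZFP at a time, also chosen after seeing the data, changed 4 of 314 results (310 kept direction and side of the threshold). The ranges were 0.019 to 0.079 for log2 fold, -0.13 to -0.060 for tags, -0.17 to -0.061 for score, -0.11 (without Gm8898, which passed) to -0.067 for width, 22.4 to 24.2 points for the intergenic share, -12.3 to -10.8 near starts and 4.36 to 6.78 for neighbours. They were 11.8 to 24.6 points for ES against F9, -1.80 to 1.33 for FLAG against HA (reversed without Rex2) and 1.74 to 14.02 for chromosome 4 against 13. Of 113 results under the other alternatives 69 were unchanged in direction and call. No paired analysis was possible because, between setups, each KRAB-ZFP has 1 sample and no replicate number ties samples of different setups. The comparisons of members with single-copy peaks were paired within each KRAB-ZFP. Depth per library is unknown and multi-mapping reads were placed at random, which limits statements on copies without a peak.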
